A study of Mus musculus with 4 samples.

Results

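Densely clustered RAD21 sites were those autosomal RAD21 sites of mouse embryonic stem cells (ESCs) that had at least 2 other ESC summits within 25 kb. The summit is the position of highest read pile-up in a called site. The rule took 1840 of 15085 autosomal ESC sites (12.2%), out of 15311 sites on all chromosomes. Chaining summits less than 25 kb apart gave 708 clusters with 2358 summits, of which 518 lay at the edge of a cluster and had only 1 other summit in reach. The 8599 sites with no other ESC summit within 25 kb (57.0%) are called isolated and served as the comparison. Since the positions of ESC summits chose the sites, all values from the ESC RAD21 library are given as descriptions.

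RAD21 was measured by ChIP-seq in R1/E mouse ESCs (day 0) and in embryoid bodies (EBs) made from them (day 12), in 1 library each. The cells in all groups carried a bacterial artificial chromosome with a GFP-tagged Rad21 gene, in addition to the cells' own gene, and came from selected and sorted clones. The tagged protein was precipitated with goat anti-GFP, and 1 library per cell type, labelled as a goat IgG control, gave the background. EBs were grown for 12 days from hanging drops and are a mixture of cell types, so that fewer cells with a bound site and less RAD21 per cell cannot be told apart. There were no replicates, so intervals cover counting error only, and they are too narrow where neighbouring sites share a locus.

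RAD21 is the kleisin of cohesin, a ring of proteins that joins sister chromatids until they separate and also extrudes chromatin loops. On interphase chromosomes cohesin collects where the zinc finger protein CTCF is bound, and it is stopped mainly by CTCF whose motif points towards the approaching loop. The CTCF motif is not a palindrome, so each site has a direction, and neighbouring sites can point the same way, towards each other or away from each other.

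The sequences below are the motif matches of 2 clusters on chromosome 11, those at Sept9, which encodes a septin of the cytoskeleton, and at Pirt, which encodes a regulator of ion channels in sensory neurons. They were among the named clusters with the most motifs and show how the direction of the motif runs along a cluster. Each line gives 60 bases of the mm9 reference, 5′ to 3′ on the strand of the motif, with the 20 bases of the match in capitals. At Sept9 the listed motifs at summits 117228003 and 117253724 pointed towards each other. A member between them, at 117246328, had only a weaker match, on the plus strand, and is not listed. The last motif, at a summit outside the rule, pointed into the cluster and made a convergent pair with the one before it. The sites at Sept9 follow in the order of the chromosome, from chr11:117219772-117219831 to chr11:117295541-117295600, with the strand in the name.
Sept9 summit 117219713, minus strand: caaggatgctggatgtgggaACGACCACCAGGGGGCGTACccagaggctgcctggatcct
Sept9 summit 117221337, minus strand: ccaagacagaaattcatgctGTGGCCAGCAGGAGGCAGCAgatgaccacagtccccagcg
Sept9 summit 117228003, plus strand: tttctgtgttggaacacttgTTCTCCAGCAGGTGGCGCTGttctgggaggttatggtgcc
Sept9 summit 117253724, minus strand: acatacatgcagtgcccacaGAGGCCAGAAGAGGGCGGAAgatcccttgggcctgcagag
Sept9 summit 117278588, plus strand: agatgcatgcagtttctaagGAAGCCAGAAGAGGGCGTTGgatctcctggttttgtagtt
Sept9 summit 117295563, minus strand: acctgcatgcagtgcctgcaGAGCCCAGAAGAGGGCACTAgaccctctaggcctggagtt

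The 4 matches at Pirt lay between 66712430 and 66727973 on the same chromosome. Pirt starts within the cluster, and the last of these sites lay in its intron. The motifs of the first 2 sites were on the minus strand and those of the last 2 on the plus strand, so that the motifs at both ends pointed out of the cluster.
Pirt summit 66712374, minus strand: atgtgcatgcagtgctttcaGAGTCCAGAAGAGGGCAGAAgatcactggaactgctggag
Pirt summit 66713132, minus strand: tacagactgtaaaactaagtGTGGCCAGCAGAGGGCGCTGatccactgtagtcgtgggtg
Pirt summit 66719569, plus strand: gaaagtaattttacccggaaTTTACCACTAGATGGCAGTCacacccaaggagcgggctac
Pirt summit 66727925, plus strand: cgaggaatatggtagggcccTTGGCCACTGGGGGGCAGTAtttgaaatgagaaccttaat

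Most clusters were small. Of the 708 clusters, 535 held 3 summits, 124 held 4, 38 held 5, 10 held 6 and 1 held 7. They spanned a median of 23369.5 bp (quartiles 15126 and 32355.8 bp) and 17.7 Mb together, which is 0.715% of the autosomal sequence. The nearest other summit lay a median of 5470.5 bp from a clustered site and 69541 bp from an isolated one. The stretch within 250 bp of the summit overlapped that of the nearest summit at only 2 members, and 59 members lay under 1 kb from it. Each called site has 1 summit, so these counts cannot show whether neighbouring sites were bound separately. Only 2 members, both in a cluster on chromosome 6 at Spr and its pseudogene Spr-ps1, shared at least 10 words of 35 bases with another member.

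At their summits the clustered sites resembled isolated ones. Reads were counted in each library within 250 bp of the summit, after moving each read to the middle of its fragment. In ESCs the clustered sites had a median of 24 RAD21 and 3 IgG reads, against 23 and 3 at isolated sites. Their median peak score was 97.2, against 92.6 for isolated sites. In EBs the median was 10 RAD21 reads and 1 IgG read at clustered sites, against 11 and 2 at isolated sites. The depth behind these counts was 13714772 autosomal reads for ESC RAD21, 7740389 for EB RAD21, 12602155 for ESC IgG and 6929293 for EB IgG.

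**Figure D1:**
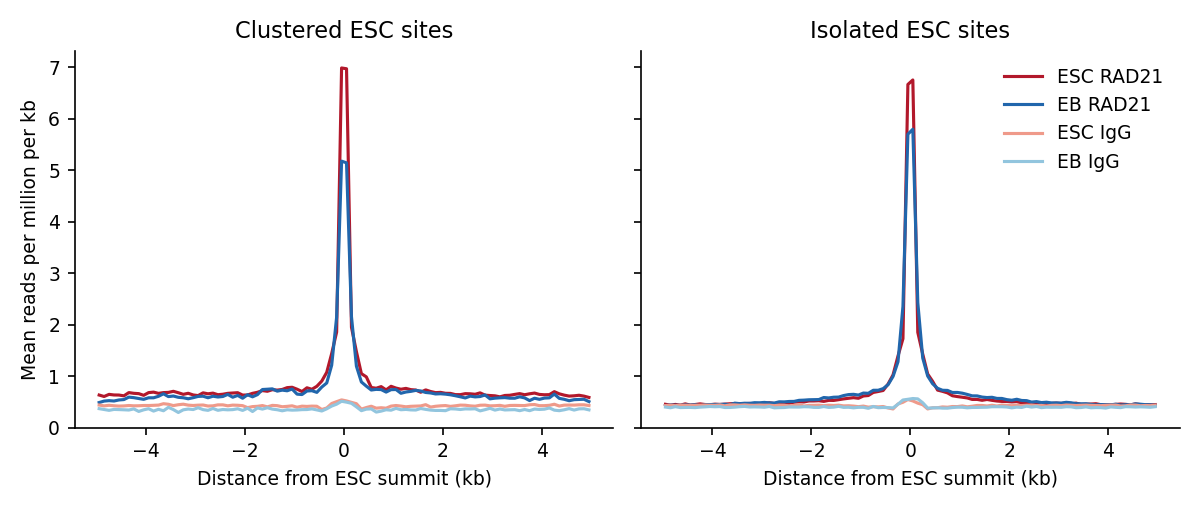
Mean RPM (reads per 1000000 autosomal reads) per kb around ESC summits, in bins along the distance from the summit in kb, for clustered sites on the left and isolated sites on the right; each line is 1 library. At the centre the ESC RAD21 line reached 6.98 at clustered and 6.71 at isolated sites and the EB RAD21 line 5.16 and 5.75, and beyond 2.5 kb both RAD21 lines ran higher around clustered sites.

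Motifs that point towards each other were rare in clusters. Among 265 pairs of neighbouring clustered sites that both had a motif, 159 pointed the same way (60.0%, exact 95% interval 53.8 to 65.9), 88 pointed away from each other (33.2%, 27.6 to 39.2) and 18 pointed towards each other (6.79%, 4.08 to 10.5). Among 1252 pairs of isolated neighbours the shares were 45.6%, 28.4% and 26.0%. The difference in the convergent share was -19.2 percentage points (Newcombe 95% interval -22.7 to -14.8), which is larger than counting error, though pairs within a cluster share sites. Here a site had a motif when the best match of a CTCF matrix within 150 bp of the summit reached a threshold that 1e-05 of the positions in regularly spaced windows away from sites reached. With a looser threshold, met at 1e-04 of these positions, 922 clustered pairs gave 59.7% same, 31.7% divergent and 8.68% convergent, against 45.9%, 27.0% and 27.2% of 5413 isolated pairs.

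The share of convergent pairs changed with the distance between neighbours. Over all neighbouring autosomal ESC sites with a motif at the looser threshold, it was 5.72% of 857 pairs under 5 kb apart, 7.24% of 718 pairs at 5 to 10 kb and 11.5% of 1544 pairs at 10 to 25 kb. It was 23.8% of 1818 pairs at 25 to 50 kb, 29.7% of 2501 pairs at 50 to 100 kb and 37.6% of 2597 pairs 200 kb or more apart. Same-way pairs went from 65.0% under 5 kb to 43.9% at 200 kb or more. With the motif read as in the sequences above (CCA to GGC), summits lay on its 3′ side in clusters and outside, at a median of 49.5 bp (77.8% of 842 sites on that side) and 46.5 bp (80.6% of 3709 sites).

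**Figure D2:**
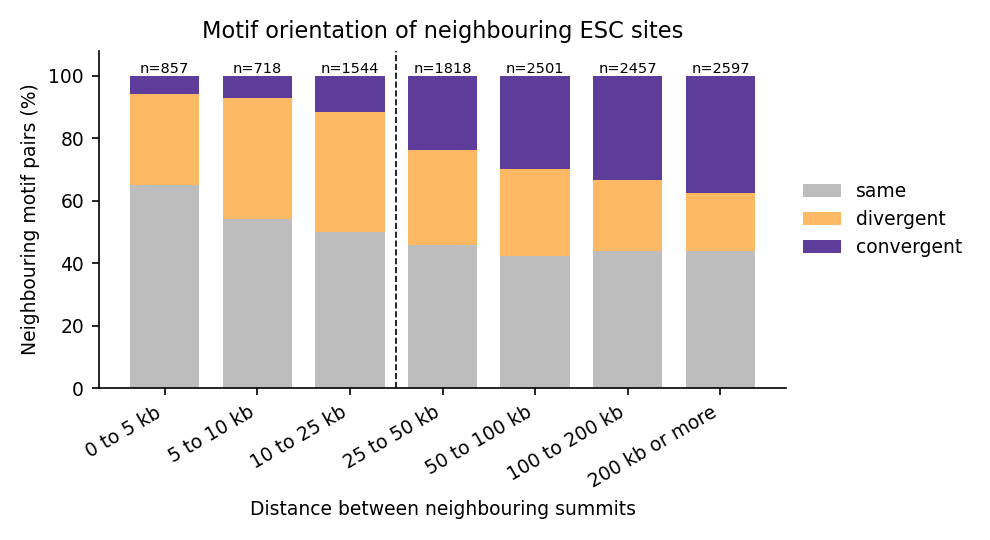
Share of neighbouring ESC sites with a motif (threshold met at 1e-04 of background positions) that point the same way, away from each other (divergent) or towards each other (convergent), by the distance between their summits; n is the number of pairs, and the dashed line marks the 25 kb used to define clusters. Convergent pairs take 5.72% of the bar under 5 kb and 37.6% of the bar at 200 kb or more.

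Motifs at the ends of the clusters mostly pointed outwards. They are in part the motifs of the pairs above, so this is no independent result. At the first summit of a cluster, counted along the plus strand, 225 of 334 motifs were on the minus strand (67.4%, 62.0 to 72.4), and at the last summit 230 of 313 were on the plus strand (73.5%, 68.2 to 78.3). Both intervals lay above an even split, with the motifs at the ends pointing out of the cluster. The looser threshold gave 71.9% of 636 first and 72.3% of 631 last summits. The EB list, treated with the same rule and the same matrices, had 12 convergent pairs among 274 clustered neighbours at the looser threshold (4.38%, 2.28 to 7.53), against 27.2% of 4389 isolated EB neighbours. Of those 274 pairs, 147 had both summits outside every ESC cluster, and 9 of them were convergent (6.12%, 2.84 to 11.3). Within ESC clusters, at the looser threshold, 6 of 202 pairs were convergent where both sites overlapped an EB site (2.97%, 1.10 to 6.35). It was 43 of 447 where 1 of the pair did (9.62%, 7.05 to 12.7) and 31 of 273 where neither did (11.4%, 7.85 to 15.7). The first interval lay below the others, which overlapped each other.

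The presence of a motif differed little between the classes. It was found at 842 clustered sites (45.8%) and 43.1% of isolated sites, a difference of 2.63 points (0.13 to 5.14), against 0.590% of the background windows. At the looser threshold 89.8% of clustered and 90.4% of isolated sites had one, so the difference turned to the other sign. By the stricter threshold 200 clusters had no member with a motif, 262 had 1 and 246 had at least 2, and in 130 clusters every member had one, or in 559 with the looser threshold.

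The commonest motif core in the ESC list marked sites with few EB reads. The core is the 12 bases of the match that correspond to the search pattern of the matrix, and it was CCAGAAGAGGGC at 165 of 1653 clustered sites with a motif at the looser threshold (9.98%, 8.58 to 11.5) and at 880 of 7776 isolated ones (11.3%, 10.6 to 12.0). The last 3 Sept9 sequences and the first Pirt sequence above hold it. These cores were looked at after the sequences had been seen. Of the 165 clustered sites 12 overlapped an EB site (7.27%, 3.81 to 12.4), and of the 880 isolated sites 77 did (8.75%, 6.97 to 10.8). At clustered sites with any core outside the 8 commonest, 50.2% of 1225 overlapped.

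The reads showed the same split. The 165 clustered sites with this core had a median of 22 ESC RAD21 and 4 EB RAD21 reads, and 3 ESC IgG and 1 EB IgG reads. Their summed EB to ESC ratio, scaled to autosomal reads, was 0.359 (0.332 to 0.388) for RAD21 and 0.817 (0.695 to 0.958) for IgG. At clustered sites with a core outside the 8 commonest the ratio was 0.884 (0.867 to 0.900) for RAD21 and 0.932 (0.884 to 0.984) for IgG. At isolated sites the core gave 0.391 (0.379 to 0.404) for RAD21 and 0.903 (0.845 to 0.966) for IgG, against 1.02 (1.01 to 1.03) and 1.09 (1.07 to 1.12) with other cores. IgG was thus lower at sites with the core as well, with intervals that overlapped at clustered sites and were apart at isolated ones, and by a smaller factor than RAD21. In the EB list the core made up 1.81% of 9177 sites with a motif, against 11.1% of 13693 in the ESC list.

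The bases around this core were shared between sites. Over the 40 bases beside the match, the commonest base was held by a mean of 59.3% of 164 clustered sites and 57.7% of 866 isolated sites, against 35.03% of clustered sites with a core outside the 8 commonest. The commonest base at each position gave this consensus, shown because it is the sequence common to the sites with few EB reads.
Consensus of clustered sites with the core: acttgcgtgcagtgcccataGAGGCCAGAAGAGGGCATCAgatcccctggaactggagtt
Mouse B2 short interspersed repeats are known to carry CTCF motifs. Repeat annotation was not used here, and how reads from repeats were placed in each library was not tested. Without the sites that had this core, 47.9% of 1675 clustered and 54.0% of 7719 isolated sites overlapped an EB site, and the convergent share of clustered pairs was 8.56% of 748 at the looser threshold.

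Clustered sites overlapped EB sites somewhat less often than isolated ones. An EB site overlapped 815 of the 1840 clustered sites (44.3%, 42.0 to 46.6) and 4245 of the 8599 isolated sites (49.4%, 48.3 to 50.4), against 48.6% of all autosomal ESC sites. The difference was -5.07 points (-7.56 to -2.56). It was negative in each of 5 bands of the ESC peak score, with 3 intervals below 0, for example 31.8% against 42.1% at scores of 70 to 100. In 5 classes of GC content it was negative in 3, with 1 interval below 0, and weighting isolated sites to the GC classes of the clustered ones left -2.63 points (-5.17 to -0.09). With summits within 10 kb in place of 25 kb the difference was -0.0233 points (-4.38 to 4.35), so it was no longer detectable. Among sites of score 100 or more, with neighbours counted among these alone, it was -0.868 points (-6.92 to 4.73), and this too includes 0.

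**Figure D3:**
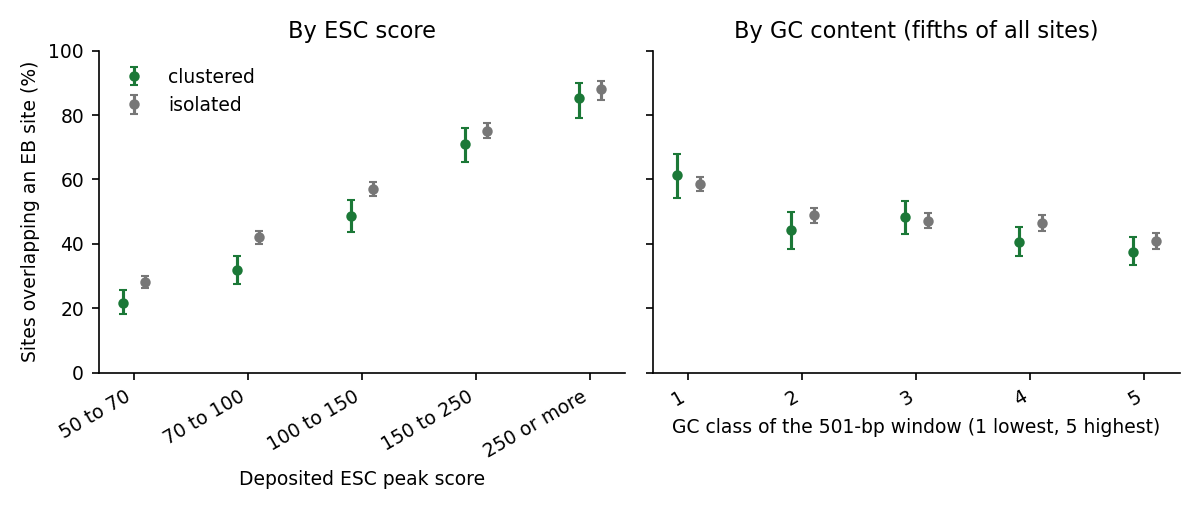
Share of ESC sites that overlap an EB site, for clustered and isolated sites, by deposited ESC peak score on the left and by 5 classes of GC content of equal size on the right; points are shares and bars exact 95% intervals. The share rises with the score from 21.7% to 85.2% of clustered sites, with the clustered point lower in each score band, and by GC content the classes cross.

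The number of EB reads was lower at clustered sites in both kinds of library. Summed over sites and scaled to autosomal reads, the EB to ESC ratio of RAD21 was 0.827 (0.814 to 0.840) at clustered sites and 0.960 (0.953 to 0.966) at isolated sites. The ratio of IgG at the same windows was 0.936 (0.896 to 0.978) and 1.07 (1.05 to 1.10). Clustered over isolated, that is 0.861 (0.847 to 0.876) for RAD21 and 0.871 (0.830 to 0.913) for IgG, and RAD21 relative to IgG gave 0.989 (0.940 to 1.04), an interval that includes no difference. In EBs the ratio of RAD21 to IgG was 6.65 (6.40 to 6.90) at clustered and 6.51 (6.41 to 6.62) at isolated sites.

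Sites at least 2-fold lower were about as frequent as among all ESC sites. With 1 read added to each count, 569 clustered sites (30.9%) had at least 2-fold fewer EB than ESC RAD21 reads after scaling, against 28.7% of all autosomal sites and 28.4% of isolated ones, all of which were called on ESC reads. Only 70 (3.80%) had at least 2-fold more, against 6.77% of all sites and 7.87% of isolated ones. No EB RAD21 read lay at 52 of the 1840 clustered sites, at 197 of the 8599 isolated sites and at 376 of all 15085 autosomal sites. The median log2 ratio was -0.46 at clustered and -0.23 at isolated sites, against 0.24 in the background windows, where counts are so low that the added read raises the ratio. The same ratio of IgG was 0.13 and 0.28.

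GC content moved with these values. It was a median of 47.5% within 250 bp of clustered summits, 44.7% at isolated ones and 41.7% in the background windows, and the difference between the classes was 2.79 points (2.35 to 3.08). Scaling the RAD21 ratio by the IgG ratio of the GC class changed the difference in median log2 ratio from -0.24 to -0.11 (-0.19 to -0.05). The part of GC content in the lower EB values was not tested beyond this. Clustered sites were nearer to transcription starts, at a median of 16077 bp against 22260 bp, and 6.20% of them lay within 1 kb of one against 5.06% of isolated sites. They lay in exons in 3.70% against 2.42%, in introns in 32.9% against 36.7% and between genes in 57.2% against 55.8%.

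The number of sites with an EB counterpart varied between clusters. Of the 535 clusters of 3 summits, 98 had no summit that overlapped an EB site. In 194 of them 1 summit did, in 181 it was 2 and in 62 all 3 (11.6%). The 48.6% of autosomal sites that overlapped an EB site is a share of single sites and not comparable with this. Whether the split differed from that of independent sites was not tested. Counted as EB summits between the first and last ESC summit, 119 of the 708 clusters held no EB site (16.8%), 237 held 1, 237 held 2 and 115 held at least 3 (16.2%, 13.6 to 19.2). A clustered site overlapped an EB site in 46.8% of 833 cases where its nearest ESC neighbour did and in 42.2% of 1007 where it did not, and for isolated sites the shares were 51.4% and 47.3%. Within the 488 clusters of at least 3 members the highest ESC count was a median of 1.87 times the lowest. The highest EB count was 3.92 times the lowest after 1 read was added. Sites were called on ESC reads, which kept low ESC counts out, and EB counts were smaller. The wider range in EBs is therefore no finding by itself.

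Larger clusters had a lower EB share. An EB site overlapped 46.6% of 1213 members of clusters of 3 (43.7 to 49.4), 43.3% of 406 in clusters of 4 (38.5 to 48.3) and 33.5% of 221 in clusters of 5 or more (27.3 to 40.1). The intervals of clusters of 3 and of 5 or more did not overlap. The median peak score of these members was 102, 92.2 and 83.8. The EB to ESC ratio of RAD21 was 0.861, 0.807 and 0.670 (0.638 to 0.704), and that of IgG 0.9496, 0.932 and 0.869 (0.764 to 0.987). Chromosomes 6, 8 and 11 differed in depth between ESCs and EBs, in the IgG and the RAD21 libraries alike. Without them the shares were 48.0%, 40.8% and 32.3% and the RAD21 ratios 0.909, 0.819 and 0.702.

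Chromosome 11 held more of the clustered sites than any other chromosome. It had 341 of them, or 18.5% against its 9.18% of all autosomal ESC sites, and 24.6% of its ESC sites were clustered. Chromosome 6 came next with 192 (17.2% of its sites), and chromosome 14 was lowest with 6.15%. In background windows the ESC IgG library had, after scaling to autosomal reads, 1.15 times the EB IgG reads on chromosome 11, 1.21 times on chromosome 6 and 1.25 times on chromosome 8, against 0.900 to 1.04 times elsewhere. For the RAD21 libraries these values were 1.16, 1.17 and 1.26 times, against 0.928 to 1.08 times elsewhere. The part of these depth differences in the number of sites was not tested. By the same rule 783 of 10781 autosomal EB sites (7.26%) formed 297 clusters, and chromosome 11 again held the most, 73 of them (9.32% against its 7.80% of all EB sites), with 8.68% of its EB sites clustered. Of the 783 clustered EB sites, 296 (37.8%) lay in ESC clusters, against 1075 of all 10781 autosomal EB sites (9.97%).

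**Figure D4:**
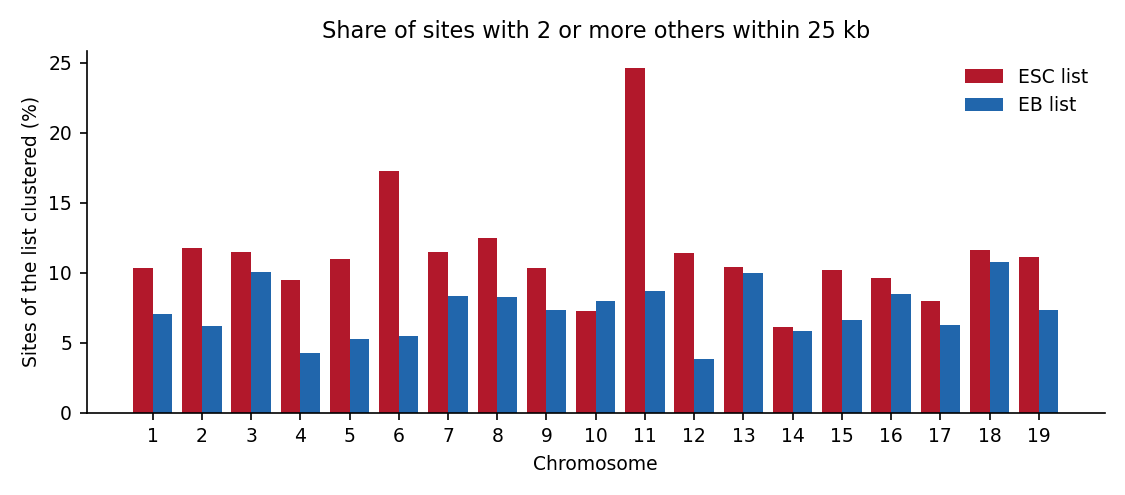
Share of the sites of each list, in percent, that had 2 or more others of the list within 25 kb, for the 19 autosomes; red bars are the ESC list and blue bars the EB list. The ESC bar of chromosome 11 stands at 24.6% and that of chromosome 6 at 17.2%, while their EB bars stand at 8.68% and 5.49%.

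Relative to IgG, RAD21 reads were denser between the summits of a cluster. Over 1 kb from every summit, ESC RAD21 had 0.499 RPM per kb inside clusters and 0.430 in the flanks of isolated sites (5 to 25 kb from the summit), a ratio of 1.16 (1.15 to 1.17). EB RAD21 gave 1.11 (1.10 to 1.12), ESC IgG 1.00 (0.998 to 1.01) and EB IgG 0.885 (0.875 to 0.894). RAD21 relative to IgG was thus 1.16 (1.14 to 1.17) times as high inside clusters in ESCs and 1.25 (1.23 to 1.27) times in EBs. At over 2 kb from every summit these values were 1.11 (1.10 to 1.12) and 1.18 (1.16 to 1.20). These stretches lay nearer to summits than the flanks, where reads are denser, and ESC summits chose the clusters. At the same distance from the nearest ESC or EB summit, the ratio of ESC RAD21 was 1.04, 1.08 and 1.07 at 1 to 2, 2 to 5 and 5 to 10 kb, and that of EB RAD21 turned to 0.921, 0.948 and 0.941. EB IgG was 0.869, 0.882 and 0.897, and EB RAD21 relative to IgG 1.06 (1.03 to 1.09), 1.07 (1.05 to 1.10) and 1.05 (1.02 to 1.07). With clusters defined at 50 kb the EB RAD21 ratio in the first comparison also turned, to 0.985 (0.980 to 0.9898). The GC content of the stretches over 1 kb from summits was 46.5% inside and 43.8% outside.

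Named clusters show how sites within one locus differed. The cluster with 6 members in the shortest span lay on chromosome 6 from 120143358 to 120172852, at Ninj2, a cell surface adhesion protein, and B4galnt3, a glycosyltransferase. Its ESC RAD21 counts, in chromosome order, were 54, 26, 23, 23, 16 and 46 reads, and its EB counts 17, 8, 16, 3, 6 and 5. The EB to ESC ratio was 0.518 (0.377 to 0.703) after scaling, against 0.579 (0.209 to 1.402) for IgG. The first site, in the Ninj2 promoter, and the third, in a Ninj2 exon, overlapped an EB site, while the last site, in a B4galnt3 intron and the second highest in ESCs, did not.

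**Figure D5:**
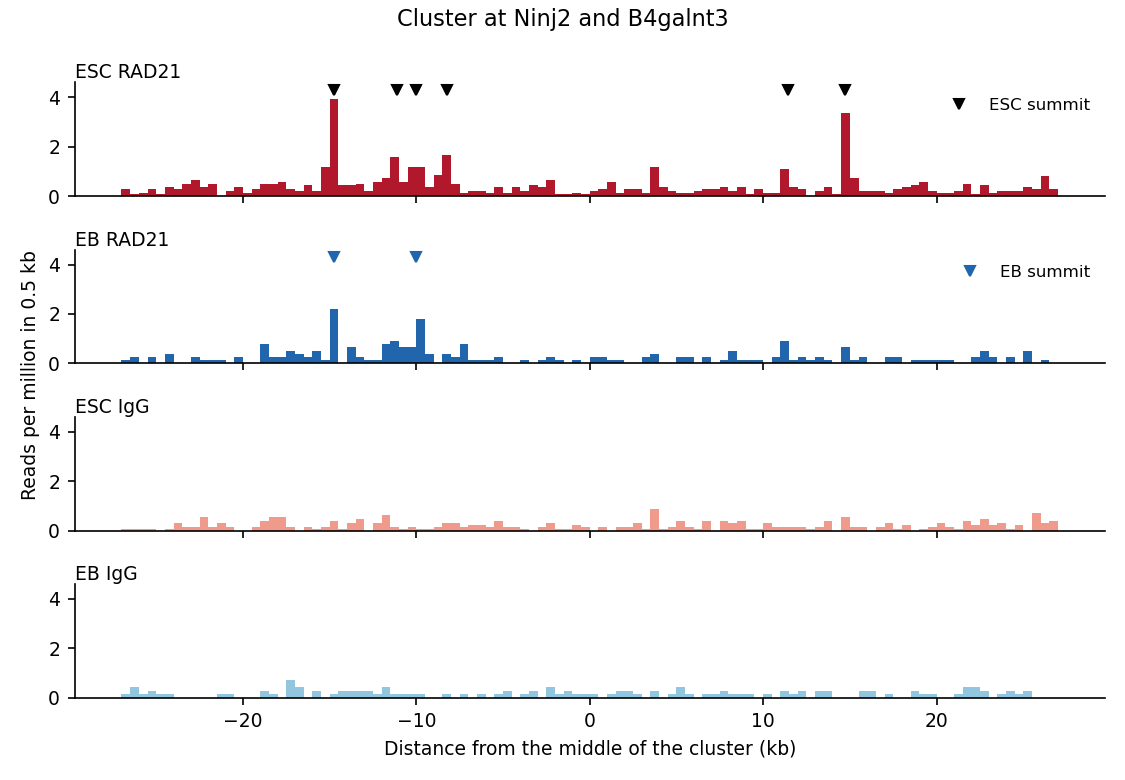
RPM (reads per 1000000 autosomal reads) in bins of 0.5 kb across the cluster at Ninj2 and B4galnt3, in each of the 4 libraries, along the distance from the middle of the cluster in kb; triangles mark ESC summits in the first panel and EB summits in the second. The ESC RAD21 bins reach 3.94 at the left and 3.35 at the right end of the cluster, and the EB bins 2.20 and 0.646 there.

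At Sept9 the 6 members had 67, 25, 27, 29, 28 and 33 ESC RAD21 reads and 44, 10, 5, 22, 1 and 5 EB reads. The first 2 lay within 1 kb of the Sept9 start and overlapped EB sites. The fifth and sixth hold the core described above and had 1 and 5 EB reads, and a seventh summit outside the rule, also with that core, had 18 and 3. At Pirt the members had 20, 22, 13, 67 and 29 ESC reads and 1, 11, 6, 26 and 5 EB reads. The ratios of the clusters were 0.738 (0.568 to 0.952) and 0.575 (0.408 to 0.798), with 0.398 and 0.242 for the few IgG reads.

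Other clusters with many members differed in direction. At Bcl6, which encodes a transcriptional repressor of germinal centre B cells, the 6 members had 14, 20, 16, 24, 29 and 17 ESC reads and 8, 7, 1, 28, 21 and 29 EB reads. The last 3 members in chromosome order were those that overlapped EB sites, and the whole cluster had a ratio of 1.39 (1.05 to 1.83). IgG gave 1.68 (0.700 to 3.99) there, on 13 ESC and 12 EB reads, so that the background was higher in EBs too. At Gli2, a transcription factor of the Hedgehog pathway, 3 of 5 members overlapped EB sites and the ratio was 0.621 (0.457 to 0.833). At the fatty acid desaturase genes Scd2 and Scd3 it was 0.779 (0.562 to 1.07). IgG gave 0.849 (0.293 to 2.21) at Gli2 and 0.946 (0.444 to 1.92) at Scd2 and Scd3. None of the 5 members at Cblc, a ubiquitin ligase gene, and Bcl3, a regulator of NF-kappaB, overlapped an EB site, and their EB counts were 4, 2, 4, 5 and 12 against 29, 20, 16, 24 and 20 in ESCs. The motifs of the first 2 sites at Cblc were on the minus strand and those of the other 3 (1 of them at the looser threshold) on the plus strand, so that no pair of neighbours was convergent.

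The lowest and highest ratios were taken from 126 clusters with at least 3 members and 150 RAD21 reads, so their size is a matter of selection. The lowest was 0.364 (0.236 to 0.546) at Ranbp17, a nuclear transport factor, and Gabrp, a GABA receptor subunit. Its members had 21, 17, 25, 20, 13 and 45 ESC reads and 9, 2, 2, 1, 0 and 15 EB reads, and only the last one overlapped an EB site. It was followed by Pcdhgc5 at 0.412, Fbxo39 and Tekt1 at 0.454, and Vwf, the gene of von Willebrand factor, at 0.456. IgG gave 0.753 (0.350 to 1.52) at Ranbp17 and 1.21 (0.355 to 3.81) at Pcdhgc5. It gave 0.693 (0.265 to 1.63) at Fbxo39 and 0.496 (0.0889 to 1.88) at Vwf, on few reads. The highest RAD21 ratio was 2.31 (1.67 to 3.21) at the kinase gene Plk2. There 28, 23 and 18 ESC reads stood against 21, 40 and 29 EB reads, and all 3 sites overlapped EB sites. Asb5 had 1.85, Mtap 1.82, and the metalloprotease genes Adamts15 and Adamts8 had 1.77. IgG gave 1.82 (0.640 to 5.17) at Plk2, 2.86 (1.01 to 8.69) at Asb5, 1.94 (0.898 to 4.21) at Mtap and 0.909 (0.244 to 2.92) at Adamts15, so that at 3 of these 4 clusters the background was higher in EBs too, on few reads.

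The clusters of at least 4 members with the shortest spans lay in a Vgll4 intron (3142 bp), near Enpp1 (8978 bp) and in an Etl4 intron (10505 bp). Vgll4 encodes a cofactor of TEAD transcription factors and Enpp1 a nucleotide pyrophosphatase. All 4 members overlapped EB sites at Vgll4, where there were 2 EB summits, and at Enpp1, and 2 of 4 did at Etl4. The ratios were 1.29 (0.922 to 1.78), 0.954 (0.660 to 1.36) and 0.930 (0.654 to 1.31), and each interval includes 1.

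Over all 708 clusters the EB to ESC ratio of RAD21 reads had a median of 0.769 (quartiles 0.517 and 1.07). All these sites were called in the ESC library alone, so that high ESC counts were selected, and values under 1 are no finding by themselves.

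Gene starts inside the clusters were few. Of 21418 autosomal protein-coding genes 296 (1.38%) started between the first and last summit of a cluster. Of 24 clustered protocadherin genes in the annotation, which encode neuronal adhesion proteins, 10 did, all of them Pcdhb genes in 3 neighbouring clusters. Their ratios were 0.699 (0.357 to 1.30), 0.307 (0.156 to 0.558) and 0.580 (0.320 to 1.00), and no summit of the 3 clusters overlapped an EB site. In the second of these, 16, 20, 19 and 20 ESC reads at Pcdhb10 to Pcdhb13 stood against 1, 6, 3 and 3 EB reads. Since these genes are neighbours, their count rests on 1 locus.

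Of 23 pluripotency genes, 5 started in a cluster: Pou5f1, Nanog, Dppa3, Gdf3 and Lefty2. Nanog, Dppa3 and Gdf3 are neighbours on chromosome 6, so that 3 of the 5 rest on 1 locus. At Pou5f1, the gene of the transcription factor OCT4, the 4 members had 32, 17, 17 and 27 ESC reads and 16, 0, 1 and 10 EB reads, and the ratio was 0.514 (0.322 to 0.797). At Nanog, another core pluripotency factor, the 4 members had 57, 17, 19 and 39 ESC reads and 33, 1, 5 and 18 EB reads, with a ratio of 0.765 (0.551 to 1.05). At Lefty2, a Nodal inhibitor, the ratio was 0.935 (0.507 to 1.67). In both, the member with the most ESC reads also had the most EB reads.

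Of 39 Hox genes 4 started in a cluster, Hoxb5 to Hoxb8, with a ratio of 0.803 (0.569 to 1.12). Of 50 Wnt, Fgf and Bmp ligand genes only Fgf15 did, next to the cyclin gene Ccnd1. Its 4 members had 0, 3, 5 and 6 EB reads against 16, 22, 17 and 17 in ESCs, and the ratio was 0.345 (0.179 to 0.616). Of 30 imprinted genes 3 did. Of these, Magel2 lay in a cluster with a ratio of 1.62 (1.16 to 2.25), where IgG gave 2.86 (1.01 to 8.69). Mcts2, within H13, lay in one with 1.14 (0.738 to 1.74). Kcnq1, a potassium channel gene, lay in one with 0.489 (0.297 to 0.775), but all 3 members there lay within 1 kb of a Trpm5 start. The summit inside Kcnq1 was outside the rule and the ratio, with 39 ESC and 2 EB RAD21 reads. No gene of 12 for cohesin and its partners started in a cluster, and only Olfr221 of 1106 olfactory receptor genes did. Of 67 histone genes 5 did, all in 1 cluster with a ratio of 0.940 (0.605 to 1.44).

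Sites just inside and just outside the rule had close values. The 424 members whose second nearest summit lay 20 to 25 kb away had a median of 23 ESC and 9 EB RAD21 reads, and 41.3% overlapped an EB site. The 458 sites where it lay 25 to 30 kb away had 23 and 8 reads, and 40.6% overlapped.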

How the data were processed

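The authors aligned ChIP-seq reads to mm9 (aligner not given in the sources used here) and called sites with MACS 1.4.0beta, each RAD21 library against its IgG library. The authors deposited read positions, used here as counts of reads. The deposited site lists give a score, which MACS made as -10 times the log10 of its p-value (lowest 50.01). The deposited summits give a signal, the pile-up of reads made by MACS. The IgG controls are also described as input. The EB IgG file breaks off on chromosome X, and 8 broken lines of the IgG files were skipped, so autosomes were used. No read position was repeated. Reads were moved to the middle of 205 bp (ESC) or 196 bp (EB) fragments. Shares have exact or Newcombe 95% intervals, and ratios of counts Poisson-based ones. With 1 library per group there was no test between conditions. A 20-base CTCF matrix was learned on odd chromosomes from a degenerate 12-base CTCF pattern and scored on even ones, and the other way round. GENCODE vM1 gave genes. Scripts used Python 3.11.15, numpy 2.4.6, scipy 1.17.1 and pysam 0.24.0 and were checked on simulated data. Clusters are named by member number, by extreme EB to ESC ratio, by short span, or for listed genes. The consensus left out chromosome 18. The members and lists were chosen with earlier results of these data known, and motif cores, orientation by spacing and orientation in the EB list were added after values were seen. Alternatives concerned the radius, number of neighbours, score, motif threshold, counting, scaling and chromosomes.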

Additional observations from a re-analysis of the deposited data

How the results depend on the processing

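Of 63 comparisons of 10 results with an alternative, 40 stayed within the limits set for a change, 17 moved and 6 reversed. The number of clustered sites was 524 with a radius of 10 kb, 4299 with 50 kb, 263 among ESC sites of score 100 or more, and 379 with at least 3 other summits. With a radius of 10 kb the difference in EB overlap was -0.0233 points, in median log2 ratio -0.15, and the EB RAD21 to IgG ratio, clustered over isolated, was 1.09, and the EB density between summits 1.33. With 50 kb that density reversed to 0.985, the GC difference was 3.19 points and 22.3% of clusters held at least 3 EB sites. With ESC scores of 100 or more the overlap difference was -0.868 points (-6.92 to 4.73), the log2 difference -0.18, the GC difference 2.20 points, 37.1% of clusters held at least 3 EB sites, and the motif difference reversed to -1.72 points. It also reversed, to -0.59 points, at the motif rate of 1e-04. Scaling by the IgG ratio of the GC class gave a log2 difference of -0.11, counting 5 kb around starts gave 3.16 points, and EB density over 2 kb from summits was 1.04. At 1 to 2, 2 to 5 and 5 to 10 kb from the nearest summit, in clusters and outside alike, it reversed to 0.921, 0.948 and 0.941. The causes were not tested. Weightings by score, chromosome and GC content, chromosome scaling, equal distances from summits and leaving out chromosome 11 were chosen after seeing the data. No paired analysis was possible because each group has 1 library. Low EB depth limits single sites, where a few reads decide a ratio.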

Other observations

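Chromosome X, outside the rule, held 208 ESC sites, or 1.25 per Mb, and none of them had 2 others within 25 kb. If sites counted as independent, a count of 0 among 208 would allow a share of up to 1.44%, against 12.2% of autosomal sites. Neighbouring sites are not independent, so the limit is too low. On chromosome X, 38 sites had 1 other summit in reach. The part of the lower site density in this was not tested. On the autosomes the density of ESC sites ranged from 4.29 per Mb on chromosome 14 to 11.4 on chromosome 11.

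Motif cores other than the commonest one had EB shares on both sides of that of all sites. The core CCACTAGATGGC was found at 19 clustered sites, of which 16 overlapped an EB site (84.2%, 60.4 to 96.6), and at 189 isolated sites, of which 153 did (81.0%, 74.6 to 86.3). It was rarer in clusters, at 1.15% against 2.43% of sites with a motif, a difference of -1.28 points (-1.83 to -0.57). The core CCAGCAGAGGGC, which differs from the commonest one by 1 base, was followed by EB overlap at 19 of 56 clustered (33.9%) and 120 of 249 isolated sites (48.2%). Clusters did not consist of copies of 1 core, since only 31 of the 490 clusters with a motif at 2 or more members had 2 with the same core (6.33%).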
